A study of Arabidopsis thaliana with 4 samples.

Results

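The mitotic and replicative cell cycle machinery of Arabidopsis thaliana was followed through 36 genes in seedlings of 3 splicing-related mutants and their wild type. The 36 genes are cyclin-dependent kinases (CDKs), A-, B- and D-type cyclins, the E2F and retinoblastoma proteins that gate entry into S phase, replication proteins, mitotic kinases, the cytokinesis protein KNOLLE and inhibitors of CDKs. They were chosen by locus for their known roles, from the 34133 loci of the deposited table, and all 36 were found. CYCB1;1, which also responds to DNA damage, is not among them.

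Plant cells enter S phase when D-type cyclins with CDKA;1 phosphorylate the retinoblastoma protein RBR1 and release E2F transcription factors, which switch on replication genes such as those of the MCM helicase. Entry into mitosis depends on plant-specific B-type CDKs and on A- and B-type cyclins, whose genes are transcribed together late in the cycle by MYB3R factors that bind a promoter sequence called the MSA element. In seedlings these transcripts come mostly from dividing cells of the meristems and young organs, while most cells of a leaf have left the mitotic cycle.

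Whole seedlings of the C24 accession were compared, 10 days old and grown on Murashige and Skoog agar at 23 °C with 16 h of light and 8 h of dark. The groups were prp31, zop1, sta1 and wild type C24, with 1 library each. PRP31 and STA1 are proteins of the spliceosome and ZOP1 is a zinc-finger protein linked to splicing. The labels give no allele, and they do not say how many plants entered a library. With 1 library per group no difference has a replicate check, no test was possible, and every value describes these libraries and not the genotypes.

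The levels are FPKM, fragments scaled to transcript length and to the number of mapped fragments. Between 19066 loci in sta1 and 19188 loci in zop1 reached 1 FPKM, and the depth of prp31 was 1.11 times that of the wild type, with 0.826 times for zop1 and 0.901 times for sta1. Markers of a green seedling were high, with RCA, the Rubisco activase gene, between 6225 and 7223 FPKM and the root gene PYK10 between 1220 and 1490 FPKM over the 4 libraries. The floral genes AG and AP3 stayed at or below 0.502 FPKM, and the stem cell genes WUS and CLV3 at or below 0.079 FPKM. In bulk tissue, fewer dividing cells and less RNA per dividing cell cannot be told apart. PRP31 had 16.4 FPKM in prp31, against 23.2 FPKM in the wild type, and ZOP1 had 7.99 FPKM in zop1, against 14.1 FPKM in the wild type. STA1 had 18.9 FPKM in sta1, against 14.1 FPKM in the wild type, so a lower level of the mutated gene was seen for prp31 and zop1 and not for sta1.

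Promoter sequence from the Columbia reference is shown first for 4 members, chosen because they hold the motif for which late-cycle or replication genes are known, and not for the size of their differences. Each is the 250 nt before the RefSeq gene start (TAIR10.1), written 5′ to 3′ along the gene. Capitals mark the MSA core AACGG on either strand, or the E2F motif in the forms TTTCCCGC, TTTGGCGC, TTTCGCGC and TTTGCCGC on either strand. CYCB1;2 (chr5:1861704-1861953, minus strand) and CYCB2;2 (chr4:16901346-16901595, plus strand) encode mitotic cyclins, and MCM2 (chr1:16969964-16970213, plus strand) and MCM5 (chr2:3527501-3527750, minus strand) subunits of the replicative helicase.
CYCB1;2: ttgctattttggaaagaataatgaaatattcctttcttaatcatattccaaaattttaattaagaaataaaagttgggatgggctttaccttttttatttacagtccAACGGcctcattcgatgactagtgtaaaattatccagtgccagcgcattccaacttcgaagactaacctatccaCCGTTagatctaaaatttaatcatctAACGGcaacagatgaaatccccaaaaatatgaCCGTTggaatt
CYCB2;2: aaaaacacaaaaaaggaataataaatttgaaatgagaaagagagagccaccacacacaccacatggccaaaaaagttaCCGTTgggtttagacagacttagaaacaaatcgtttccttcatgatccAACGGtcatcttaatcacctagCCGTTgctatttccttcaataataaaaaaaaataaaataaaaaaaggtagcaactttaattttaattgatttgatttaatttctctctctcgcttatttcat
MCM2: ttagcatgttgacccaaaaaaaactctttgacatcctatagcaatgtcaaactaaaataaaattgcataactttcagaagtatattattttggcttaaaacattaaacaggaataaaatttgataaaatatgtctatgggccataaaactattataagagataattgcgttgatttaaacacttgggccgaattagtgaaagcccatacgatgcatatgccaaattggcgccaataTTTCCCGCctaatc
MCM5: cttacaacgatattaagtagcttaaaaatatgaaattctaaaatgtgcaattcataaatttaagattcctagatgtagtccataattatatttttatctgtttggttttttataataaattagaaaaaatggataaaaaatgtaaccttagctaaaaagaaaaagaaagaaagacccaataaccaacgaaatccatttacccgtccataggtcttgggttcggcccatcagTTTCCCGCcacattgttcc

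The CYCB1;2 window held 4 copies of the MSA core and the CYCB2;2 window 3, and neither held the E2F motif. The MCM2 and MCM5 windows each held 1 E2F motif, beginning 14 and 19 nt before the gene start, and no MSA core. Of the 18 genes placed in G2 and M, 11 held at least 1 MSA core (61.1%) and 7 held at least 2 (38.9%), against 20.6% and 3.62% of 27443 protein-coding promoters of the same length. The E2F motif was in 2 of 5 S-phase genes, in 2 of 9 genes of S-phase entry and in none of the 18 late genes, against 1.41% of all promoters. Of the 5 late genes whose counting interval in prp31 lay below the wild type, CYCA2;4, CYCB1;4, CYCA2;3 and CDKB2;1 held no MSA core and KNOLLE held 1. The intervals of CYCB1;2 and CYCB2;2 include the wild type level, but interval width follows read number. Their ratios in prp31 were 0.892 and 0.856, on 437 and 150 reads there. CYCA2;3 and CDKB2;1 had similar ratios, 0.885 and 0.857, on 777 and 740 reads. All 17 tested late genes, with or without a core, were below the wild type in prp31 (55.9% of all loci were). A link between motif and difference was not tested. MCM7 and PCNA1 held no E2F motif, and MCM7 held 1 MSA core. CYCA3;1, also placed in S, held 2 MSA cores and no E2F motif. Some windows, among them those of CDKB2;1, MCM7 and PCNA1, overlap a neighbouring gene. All 3 inhibitor genes also held the MSA core, with 6 copies before KRP1. None of the printed windows held both motifs, and a match says only that the letters are there.

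**Figure D1:**
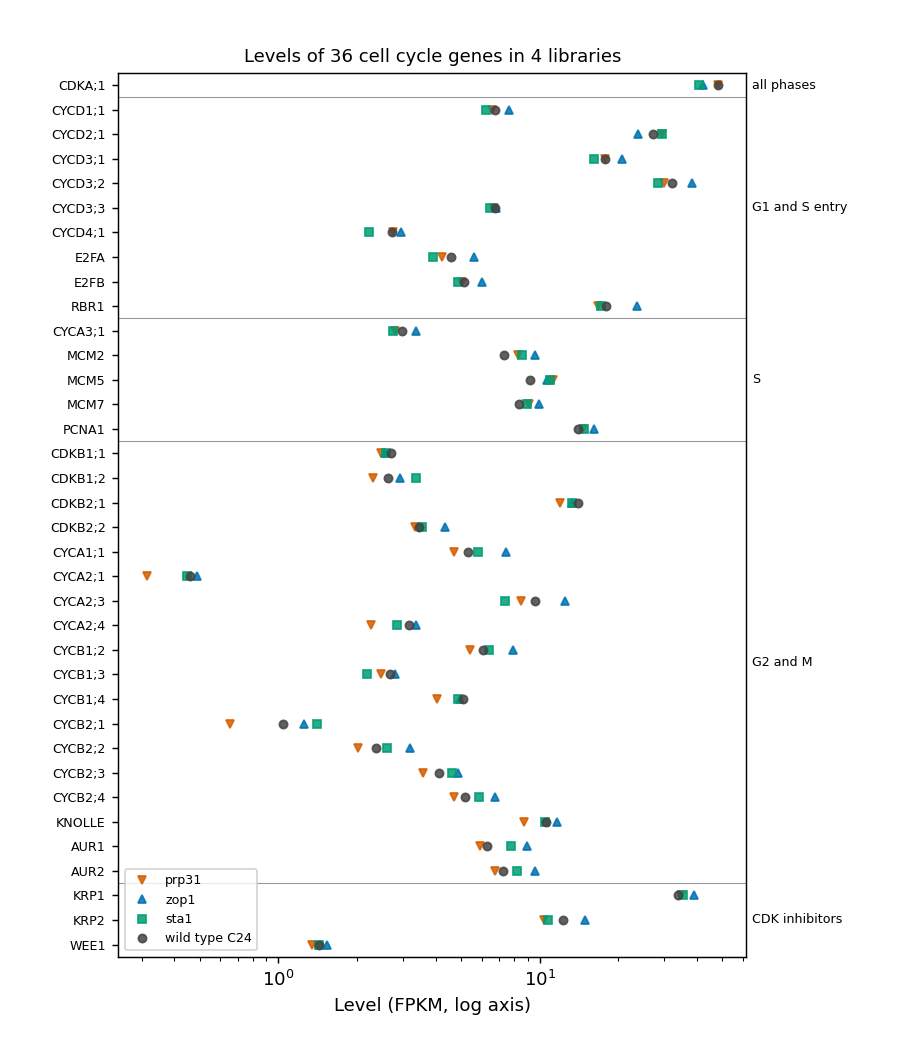
Level of each of the 36 genes in FPKM on a log axis, 1 point per library, with the genes grouped by phase. The zop1 library had the highest level for 28 of the 36 genes, and the prp31 library had the lowest level for 16 of the 18 genes of G2 and M. The shares of all loci that were highest or lowest in each library are not given here, so these counts are descriptive.

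CDKA;1 (AT3G48750), the kinase that acts at both transitions, had the highest level, at 47.9 FPKM in prp31, 42.3 FPKM in zop1, 40.5 FPKM in sta1 and 47.9 FPKM in the wild type. The D-type cyclin genes CYCD3;2 and CYCD2;1 and the inhibitor gene KRP1 followed, at 31.97, 27.1 and 33.7 FPKM in the wild type. B-type cyclin genes lay lower, between 1.04 FPKM (CYCB2;1) and 6.08 FPKM (CYCB1;2) in the wild type. CYCA2;1 stayed below 1 FPKM in every library, with 19 to 25 reads, and is the 1 member left out by the filter below.

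The comparisons use the 19240 loci, 35 of the 36 members among them, that averaged 1 FPKM or more across the libraries. Differences are of log2(FPKM + 1), a scale that shrinks differences of weakly expressed genes, and a locus was counted as past 1.3-fold when this difference reached 0.38 in either direction. Whole read numbers were recovered for 27 of the 36 members from the spacing of their values. For these, a 95% interval of the ratio of FPKM is given, exact binomial on the reads of both libraries. It covers counting error only and says nothing of variation among plants or RNA preparations.

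**Figure D2:**
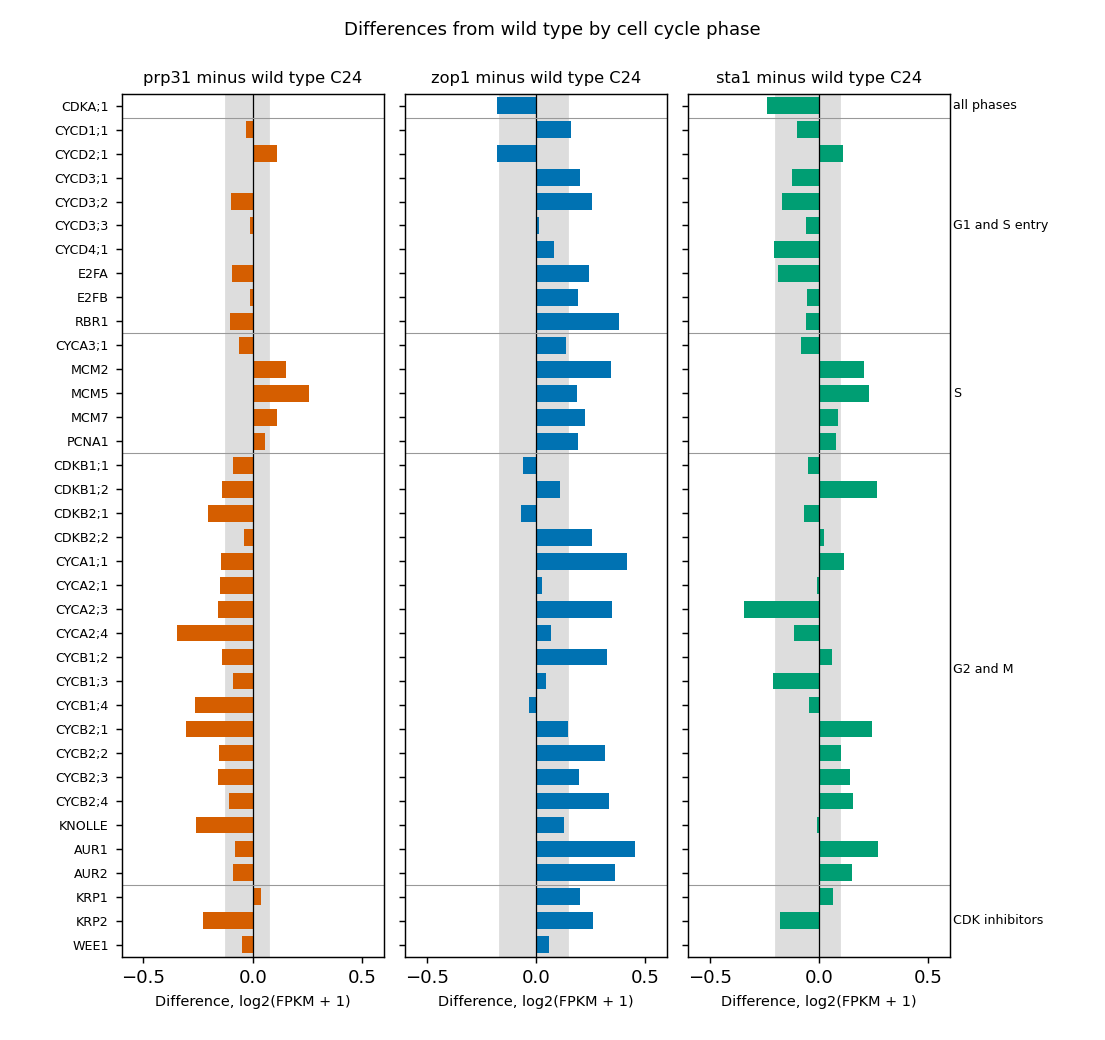
Difference of log2(FPKM + 1) from the wild type library for each member in prp31, zop1 and sta1, left to right, with genes grouped by phase. The grey band runs from the lower to the upper quartile of all 19240 loci tested. The bars of all 18 genes of G2 and M point down in prp31, and most bars point up in zop1.

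In prp31 the late-cycle genes were slightly lower than in the wild type and the replication genes slightly higher. All 17 tested genes of G2 and M were below the wild type, where 55.9% of all loci were, with a median difference of -0.15 against -0.02 over all loci. The replication genes MCM2, MCM5, MCM7 and PCNA1 were all above, where 43.8% of all loci were, with a median of 0.13. No member was past 1.3-fold in either direction, where 2.75% of loci were higher and 3.5% lower by that rule. Of 26 tested members with recovered reads, 1 had a counting interval above 1 (11.7% of such loci) and 7 had one below 1 (18.2%), 5 of them among the late genes.

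All 10 tested A- and B-type cyclin genes of G2 and M were below the wild type in prp31, where 55.9% of all loci were, with a median of -0.16. CYCA2;4 (AT1G80370), an A2-type cyclin gene, was at 2.26 FPKM in prp31, 3.36 FPKM in zop1, 2.84 FPKM in sta1 and 3.16 FPKM in the wild type, a ratio in prp31 of 0.718 (0.584 to 0.881). CYCB1;4 (AT2G26760), a mitotic B-type cyclin gene, was at 4.06 FPKM in prp31, 4.96 FPKM in zop1, 4.88 FPKM in sta1 and 5.08 FPKM in the wild type, a ratio of 0.799 (0.684 to 0.934). In both genes the prp31 library was the lowest of the 4. CYCB2;1 (AT2G17620) had the lowest ratio of the tested members, 0.627. Its interval of 0.360 to 1.07 includes 1, but rests on 25 recovered reads in prp31 and 36 in the wild type. Those numbers are probably too low and the interval too wide, so whether it should include 1 is not settled.

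KNOLLE (AT1G08560), the syntaxin gene of the dividing cell plate, was at 8.67 FPKM in prp31, 11.6 FPKM in zop1, 10.5 FPKM in sta1 and 10.6 FPKM in the wild type. Its ratio in prp31 was 0.821 (0.723 to 0.933). CDKB2;1 (AT1G76540), a mitotic CDK gene, was at 11.96 FPKM in prp31, 13.3 FPKM in zop1, 13.3 FPKM in sta1 and 13.96 FPKM in the wild type, a ratio of 0.857 (0.774 to 0.949). Both were lowest in prp31. CDKB1;1, CDKB1;2 and CDKB2;2 were 0.916, 0.871 and 0.965 of the wild type, and the Aurora kinase genes AUR1 and AUR2, of spindle and division-plane control, 0.938 and 0.931. Close copies such as these pairs can share reads, so their split follows the authors' processing.

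The genes of S-phase entry lay on both sides of the wild type in prp31, 3 above (43.8% of all loci were) and 6 below (55.9%). CYCD3;2 was at 0.931 of the wild type (0.873 to 0.992), with an interval below 1. CYCD3;1 (AT4G34160), which drives entry into S phase in growing tissue, was at 17.8 FPKM in prp31 and 17.8 FPKM in the wild type, a ratio of 1.002 (0.928 to 1.08). CDKA;1 had a ratio of 1.0002, with an interval of 0.951 to 1.05. The median of the 9 genes of S-phase entry was -0.01, close to that of all loci. E2FA and E2FB, the activating E2F genes, were at 0.921 and 0.989 of the wild type, and RBR1 at 0.928.

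The helicase genes were lowest in the wild type of all 4 libraries. MCM5 (AT2G07690) was at 11.2 FPKM in prp31, 10.6 FPKM in zop1, 10.97 FPKM in sta1 and 9.20 FPKM in the wild type. MCM2 (AT1G44900) was at 8.23 FPKM in prp31, 9.55 FPKM in zop1, 8.58 FPKM in sta1 and 7.31 FPKM in the wild type. MCM7 (AT4G02060) was at 9.11, 9.92 and 8.92 FPKM in prp31, zop1 and sta1 and at 8.35 FPKM in the wild type, with ratios of 1.09 (1.001 to 1.19), 1.19 (1.09 to 1.302) and 1.07 (0.975 to 1.17). The ratios of MCM5 were 1.22, 1.15 and 1.19 and those of MCM2 1.13, 1.31 and 1.17, in the same order. PCNA1 (AT1G07370), the sliding clamp of DNA polymerase, was at 14.6, 16.1 and 14.8 FPKM in prp31, zop1 and sta1 and at 13.98 FPKM in the wild type. The 3 comparisons share 1 wild type library, so a low value there would lift all of them. CYCA3;1, the S-phase cyclin gene, did not follow the helicase genes: its ratios were 0.945, 1.13 and 0.925.

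In zop1 most members were above the wild type, in every phase. Of the 35 tested, 30 were above, where 46.6% of all loci were, and 5 below, where 53.2% were, with a median of 0.19 against -0.02 over all loci. The median was 0.19 for S-phase entry, 0.19 for S, 0.20 for G2 and M and 0.20 for the inhibitors. Among members averaging 5 FPKM or more, the G2 and M median was 0.34 over 8 genes, while S-phase entry stayed at 0.19 and S was at 0.21. Past 1.3-fold were 3 members, all higher (8.27% of all loci were), and none lower (8.44%). The higher count depends on the pseudocount: with 0.1 and 0.01 in place of 1 it was 7 and 8 members, where 10.7% and 10.99% of all loci were higher. The counting interval was above 1 for 14 of 26 members (20.6% of such loci) and below 1 for 1 (23.7%). CDKB2;2 is not among the 14, with a ratio of 1.25 (0.921 to 1.70), but that interval is probably too wide.

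The largest difference in zop1 was that of AUR1 (AT4G32830), at 5.89 FPKM in prp31, 8.98 FPKM in zop1, 7.77 FPKM in sta1 and 6.28 FPKM in the wild type, a ratio in zop1 of 1.43 (1.22 to 1.67). CYCA1;1 (AT1G44110), an A-type cyclin gene of G2 and M, was at 4.69 FPKM in prp31, 7.42 FPKM in zop1, 5.82 FPKM in sta1 and 5.30 FPKM in the wild type, a ratio of 1.40 (1.22 to 1.61). Both were ordered prp31, wild type, sta1 and zop1 from low to high. RBR1 (AT3G12280), the retinoblastoma gene, was at 16.7 FPKM in prp31, 23.7 FPKM in zop1, 17.2 FPKM in sta1 and 17.95 FPKM in the wild type, a ratio of 1.32, with zop1 well above the other 3. AUR1, CYCA1;1 and RBR1 are the members past 1.3-fold, RBR1 by less than the second decimal (0.38), and AUR2 (0.36) and CYCA2;3 (0.35) lay just below.

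B-type cyclin genes were higher in zop1 in 6 of 7 cases, where 46.6% of all loci were above the wild type. CYCB1;2 (AT5G06150) was at 5.43 FPKM in prp31, 7.88 FPKM in zop1, 6.39 FPKM in sta1 and 6.08 FPKM in the wild type, a ratio of 1.295 (1.14 to 1.48). CYCB2;2 (AT4G35620) was at 2.02 FPKM in prp31, 3.17 FPKM in zop1, 2.60 FPKM in sta1 and 2.35 FPKM in the wild type, a ratio of 1.35 (1.08 to 1.68). CYCB2;4 had a ratio of 1.31 (1.11 to 1.54), and CYCB1;4, at 0.976 (0.831 to 1.14), was the exception. Of the D-type cyclins CYCD3;2 (AT5G67260) was at 29.8 FPKM in prp31, 38.4 FPKM in zop1, 28.3 FPKM in sta1 and 31.97 FPKM in the wild type, a ratio of 1.20 (1.13 to 1.28), and CYCD3;1 had a ratio of 1.16 (1.07 to 1.25). CYCD2;1 went the other way in zop1, at 0.879 of the wild type, as did CDKA;1 at 0.882 (0.833 to 0.934).

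The 3 inhibitor genes among the members were above the wild type in zop1, where most cyclin genes were higher too. Of 13 other CDK inhibitor and endocycle genes tested, 8 were above it in zop1 (46.6% of all loci were) and 5 below (53.2%). KRP2 (AT3G50630), a CDK inhibitor gene, was at 10.4 FPKM in prp31, 14.9 FPKM in zop1, 10.7 FPKM in sta1 and 12.3 FPKM in the wild type, with ratios of 0.843 (0.738 to 0.962) in prp31, 1.22 (1.07 to 1.38) in zop1 and 0.874 (0.760 to 1.003) in sta1. KRP1 had a ratio of 1.15 (1.07 to 1.25) in zop1. WEE1, the kinase gene of the replication checkpoint, was between 1.34 and 1.53 FPKM in all 4 libraries, and its 3 intervals include 1.

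In sta1 the members as a whole lay close to the wild type. Of the 35 tested, 17 were above (39.8% of all loci were) and 18 below (60.0%), with a median of -0.01 against -0.06 over all loci, and none was past 1.3-fold, where 5.39% of loci were higher and 9.65% lower. The genes of S-phase entry were below the wild type in 8 of 9 cases, with a median of -0.10, and those of G2 and M were above in 10 of 17, with a median of 0.06. Counting intervals were above 1 for 1 of 26 members, AUR1 (14.6% of such loci), and below 1 for 4 (29.5%), which were CDKA;1, CYCD3;1, CYCD3;2 and CYCA2;3.

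CYCA2;3 (AT1G15570), an A2-type cyclin gene known to restrain endoreduplication, was at 8.47 FPKM in prp31, 12.4 FPKM in zop1, 7.34 FPKM in sta1 and 9.57 FPKM in the wild type. It was highest in zop1 and lowest in sta1, with ratios to the wild type of 1.3004 (1.18 to 1.43) and 0.767 (0.686 to 0.856). CDKA;1 was at 0.845 of the wild type in sta1 (0.799 to 0.894), and AUR1 at 1.24 (1.06 to 1.45). CYCD4;1, a further D-type cyclin gene, was at 0.819 of the wild type in sta1.

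Of the members not yet described, CYCB1;3 was at 2.46 FPKM in prp31, 2.80 FPKM in zop1, 2.18 FPKM in sta1 and 2.68 FPKM in the wild type, and its 3 counting intervals against the wild type include 1. CYCB2;3, a further mitotic cyclin gene, was at 3.57 FPKM in prp31, 4.84 FPKM in zop1, 4.62 FPKM in sta1 and 4.10 FPKM in the wild type, with prp31 the lowest and a ratio in zop1 of 1.18 (1.009 to 1.38). Among the D-type cyclins CYCD1;1 had ratios of 0.977, 1.13 and 0.923 in prp31, zop1 and sta1, of which that in zop1 has an interval above 1 (1.009 to 1.27), and CYCD3;3 had ratios of 0.992, 1.0101 and 0.952.

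**Figure D3:**
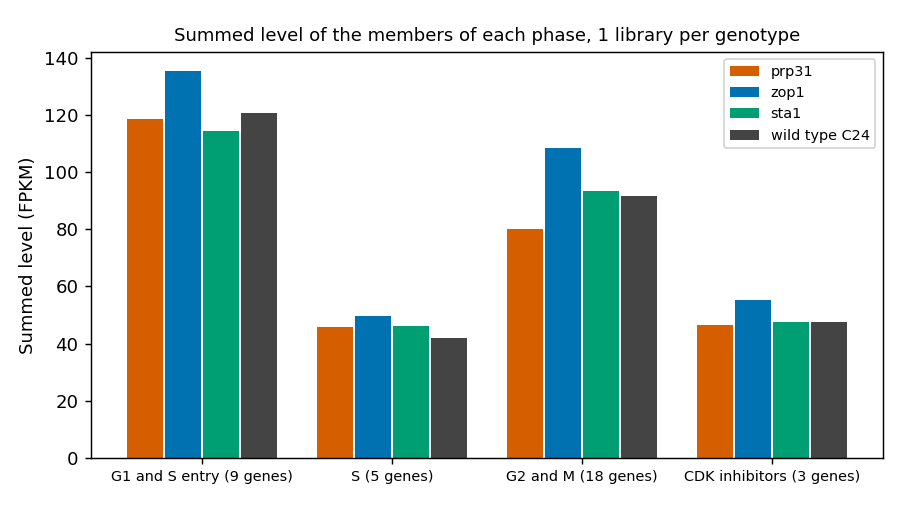
Summed FPKM of the members of each phase in each library, 1 bar per library, so there are no error bars. The late genes sum to 80.0 FPKM in prp31 and 108.7 FPKM in zop1, on either side of sta1 and the wild type.

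Summed over the 18 genes of G2 and M, the level was 80.0 FPKM in prp31, 108.7 FPKM in zop1, 93.5 FPKM in sta1 and 91.8 FPKM in the wild type. Over the 5 S-phase genes it was 45.9, 49.6 and 46.0 FPKM in prp31, zop1 and sta1 and 41.8 FPKM in the wild type. The late sum divided by the S-phase sum was therefore 1.74 in prp31, 2.19 in zop1, 2.03 in sta1 and 2.20 in the wild type. This ratio was lowest in prp31, and zop1 and the wild type were alike in it although both sums were higher in zop1.

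The mutants were also compared with each other, which leaves the wild type library out. Of the 35 tested members 3 were higher in prp31 than in zop1 (48.1% of all loci were) and 32 lower (51.7%). The late genes were all among the lower ones, 17 of 17, with a median of -0.42 against -0.01 over all loci. Past 1.3-fold and lower were 12 of 35 members (8.11% of all loci), of which 10 were genes of G2 and M and the others RBR1 and KRP2, and none was higher (7.68%). Counting intervals were below 1 for 16 of 26 members (23.2% of such loci) and above 1 for CDKA;1 alone (20.3%). CYCA1;1 had a ratio of prp31 to zop1 of 0.632 (0.548 to 0.729), AUR1 of 0.657 (0.562 to 0.767), CYCA2;3 of 0.681 (0.617 to 0.751) and CYCB1;2 of 0.689 (0.603 to 0.786). The helicase gene MCM7 was at 0.918 (0.841 to 1.001).

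**Figure D4:**
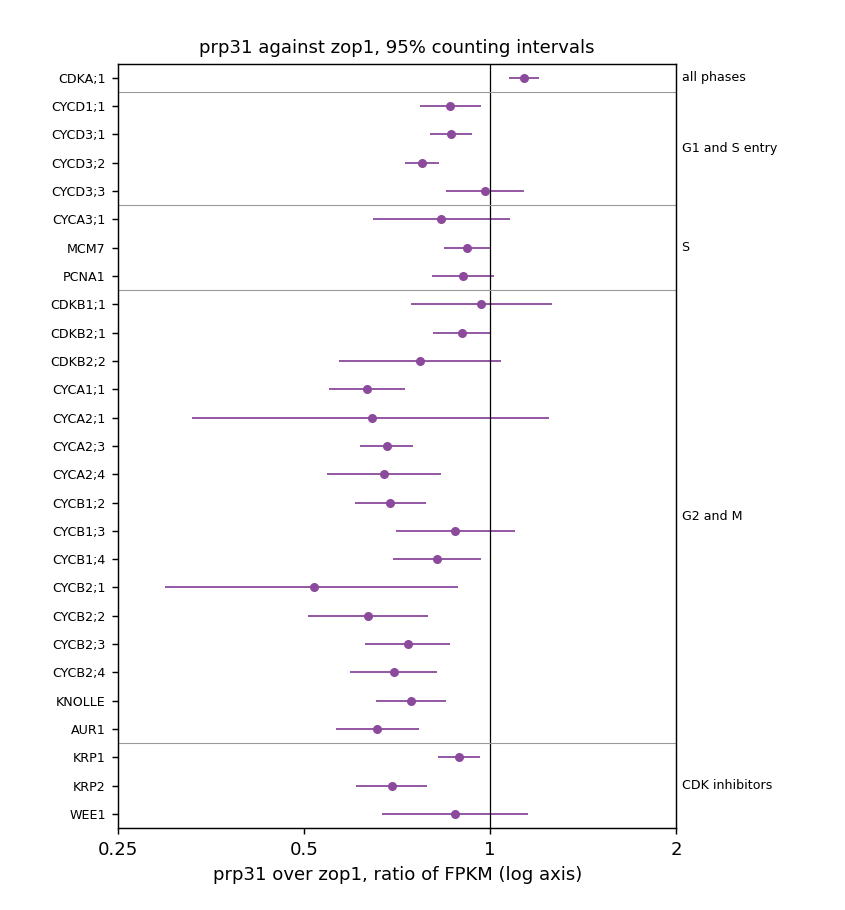
Ratio of FPKM in prp31 to zop1 for the 27 members with recovered reads, on a log axis, with 95% counting intervals. CYCA1;1 at 0.632 and AUR1 at 0.657 lie well left of 1, while CDKA;1 at 1.13 lies right of it.

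Against sta1, zop1 was above in 30 of 35 members, where 57.4% of all loci were, and below in 5, where 42.4% were. The difference was past 1.3-fold and higher in 5 members (8.17% of all loci were) and lower in none (4.34%). Counting intervals were above 1 for 10 of 26 members (24.3% of such loci) and below 1 for none (13.2%). The 5 members past 1.3-fold were CYCA2;3, with a ratio of 1.696 (1.52 to 1.89), CYCD3;2, with 1.36 (1.27 to 1.45), KRP2, with 1.39 (1.21 to 1.60), E2FA, with 1.44, and RBR1, with 1.38. Against sta1, prp31 was above in 14 members (55.9% of all loci were) and below in 21 (43.9%), and it was lower by 1.3-fold in 2 members (3.81%), CYCB2;1 and CDKB1;2, and higher in none (7.04%). CYCB2;1 had a ratio of 0.462 (0.271 to 0.771), on 25 recovered reads in prp31 and 44 in sta1, numbers that are probably too low. Below 1 were the counting intervals of 10 of 26 members in prp31 against sta1 (13.9% of such loci), all of them late genes, and above 1 those of CDKA;1, CYCA2;3 and CYCD3;1 (22.1%).

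**Figure D5:**
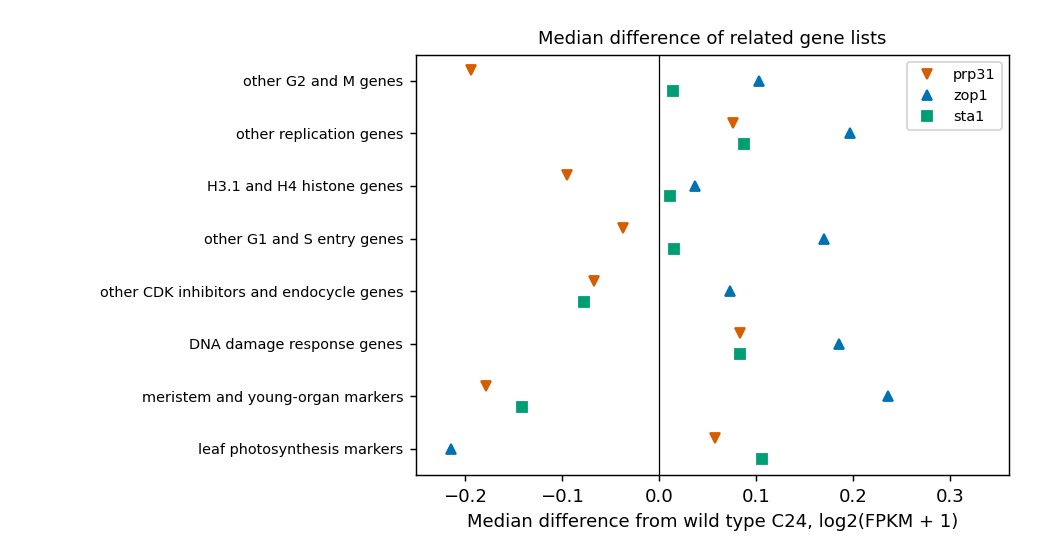
Median difference of log2(FPKM + 1) from the wild type library for the tested genes of 8 lists, with 1 point per mutant. In prp31 the other late genes have a median of -0.19 and the other replication genes one of 0.08, and in zop1 the meristem and young-organ markers have one of 0.24 and the leaf photosynthesis markers one of -0.21.

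Further genes of the same pathways were read from lists chosen by known role, with earlier results of these data known. They come from the same libraries, so they are not an independent check of the members. Of 22 other genes of G2 and M, 19 were below the wild type in prp31 (median -0.19), where 55.9% of all loci were. In zop1 14 were above (0.10), where 46.6% of loci were, and in sta1 12 were above (0.01), where 39.8% were. Past 1.3-fold were only BUB3.1, a spindle checkpoint gene, lower in prp31, CYCB1;1, higher in zop1 and sta1, and AUR3, higher in sta1. Of all loci, 3.5% were lower by that rule in prp31, and 8.27% and 5.39% were higher in zop1 and sta1. BUB3.1 was at 8.55 FPKM in prp31, 11.2 FPKM in zop1, 10.9 FPKM in sta1 and 11.6 FPKM in the wild type. HIK, a cytokinesis kinesin gene, was at 5.19 FPKM in prp31, 7.79 FPKM in zop1, 6.64 FPKM in sta1 and 6.48 FPKM in the wild type.

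Of 27 other replication genes 25 were tested, of which 18 were above the wild type in prp31 (median 0.08), where 43.8% of all loci were, 23 in zop1 (0.20), where 46.6% were, and 17 in sta1 (0.09), where 39.8% were. Past 1.3-fold in zop1 were 5 genes, ORC3, ORC6, CDT1A, TSO2 and RNR2A, all higher (8.27% of all loci were), and in sta1 ORC6, also higher (5.39%). ORC3, a subunit gene of the origin recognition complex, was at 1.76 FPKM in prp31, 3.38 FPKM in zop1, 1.54 FPKM in sta1 and 1.55 FPKM in the wild type, a ratio in zop1 of 2.18 (1.79 to 2.66) and the highest in zop1 among the replication genes. TSO2, a ribonucleotide reductase subunit gene, was at 49.6 FPKM in prp31, 68.5 FPKM in zop1, 59.4 FPKM in sta1 and 46.7 FPKM in the wild type.

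The 13 genes of histones H3.1 and H4 had medians of -0.09 in prp31, 0.04 in zop1 and 0.01 in sta1, with none past 1.3-fold. The largest change was that of the H4 gene AT5G59970, at 14.8 FPKM in prp31 and 18.98 FPKM in the wild type. Of 19 other genes of S-phase entry 17 were tested, with medians of -0.04, 0.17 and 0.02 in prp31, zop1 and sta1. DEL3, an atypical E2F gene, had 5.75 FPKM in zop1, against 3.19 FPKM in the wild type, a ratio of 1.80 (1.48 to 2.20). Of 14 other CDK inhibitor and endocycle genes 13 were tested. Below the wild type were 10 in prp31 (55.9% of all loci were), 5 in zop1 (53.2%) and 9 in sta1 (60.0%). The medians were -0.07, 0.07 and -0.08. Past 1.3-fold, SMR7 was higher in each mutant and KRP3 in sta1, while SMR2 was lower in zop1 and sta1 and SIM, the founding member of its inhibitor family, in sta1. Of all loci, 2.75%, 8.27% and 5.39% were higher by that rule in prp31, zop1 and sta1. Lower by it were 3.5%, 8.44% and 9.65%. SMR2 was at 16.6 FPKM in prp31, 14.9 FPKM in zop1, 13.2 FPKM in sta1 and 19.9 FPKM in the wild type. SIM was at 39.8 FPKM in prp31, 34.3 FPKM in zop1, 29.2 FPKM in sta1 and 40.4 FPKM in the wild type. KRP3, an inhibitor gene, was at 4.41 FPKM in sta1 and 2.53 FPKM in the wild type. SMR7, a DNA damage-induced inhibitor gene, was at 2.33 FPKM in prp31, 2.64 FPKM in zop1, 4.18 FPKM in sta1 and 0.793 FPKM in the wild type, with a ratio in sta1 of 5.27 (1.75 to 21.3). With so low a wild type level and so wide an interval, the ratios of SMR7 rest on few reads. No interval is given here for SMR7 in prp31 and zop1.

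DNA damage response genes cross this pathway at CYCB1;1. It was at 2.76 FPKM in prp31, 4.19 FPKM in zop1, 4.21 FPKM in sta1 and 2.48 FPKM in the wild type, with ratios of 1.69 (1.38 to 2.07) in zop1 and 1.70 (1.40 to 2.07) in sta1. Of 9 such genes 8 were tested, with medians of 0.08 in prp31, 0.19 in zop1 and 0.08 in sta1, and NAC044 and GMI1 were past 1.3-fold and higher in each mutant. By that rule 2.75% of all loci were higher in prp31, 8.27% in zop1 and 5.39% in sta1. NAC044, a transcription factor gene, was at 3.51 FPKM in prp31, 6.91 FPKM in zop1, 5.87 FPKM in sta1 and 1.07 FPKM in the wild type. GMI1, named for its induction by gamma irradiation, was at 2.28 FPKM in prp31, 2.86 FPKM in zop1, 3.36 FPKM in sta1 and 1.16 FPKM in the wild type.

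Markers of tissue makeup also differed between the libraries. Of 12 meristem and young-organ markers 7 were tested: all 7 were below the wild type in prp31 (55.9% of all loci were), 6 were above in zop1 (46.6%) and 6 were below in sta1 (60.0%), with medians of -0.18, 0.24 and -0.14. Their summed level over all 12 was 28.9 FPKM in prp31, 41.8 FPKM in zop1, 29.5 FPKM in sta1 and 32.8 FPKM in the wild type. ANT, a growth regulator of young organs, was at 7.34 FPKM in prp31, 12.9 FPKM in zop1, 7.46 FPKM in sta1 and 8.33 FPKM in the wild type, a ratio in zop1 of 1.55 (1.41 to 1.70). WUS was listed at 0 in prp31 and the wild type, and CLV3 in sta1 and the wild type. Of 6 leaf photosynthesis markers RBCS1A was listed at 0 in every library. The other 5 were all above the wild type in prp31 (43.8% of all loci were) and all below it in zop1 (53.2%). Their medians were 0.06 and -0.21. In sta1, 4 were above (39.8% of all loci were), with a median of 0.11. LHCB1.3, an antenna protein gene, was at 10292 FPKM in prp31, 8153 FPKM in zop1, 11073 FPKM in sta1 and 9871 FPKM in the wild type. The meristem markers and the late genes were both lower in prp31 and both mostly higher in zop1, but in sta1 the meristem markers were mostly lower while 10 of 17 late genes were above the wild type, and in prp31 the 4 helicase and clamp genes were above it. The part of tissue makeup in the cell cycle values was not tested.

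The 7 root markers, summed, were at 1548 FPKM in prp31, 1297 FPKM in zop1, 1514 FPKM in sta1 and 1282 FPKM in the wild type, with medians of -0.03, 0.02 and -0.02. GL2, a regulator of epidermal cell fate, had 1.33 FPKM in zop1, against 2.36 FPKM in the wild type. Of the 6 seed and flower markers 3 were tested, with medians of -0.67 in prp31, -2.12 in zop1 and -1.53 in sta1. These were the seed storage genes CRA1, at 1.63, 0.643 and 1.47 FPKM in the mutants and 6.14 FPKM in the wild type, and CRC, at 3.02, 0.0900 and 0.229 FPKM in the mutants and 5.37 FPKM in the wild type, and the oil body gene OLEO1, at 1.28, 0.349 and 2.88 FPKM in the mutants and 1.64 FPKM in the wild type, in the order prp31, zop1 and sta1.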

How the data were processed

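Messenger RNA of whole seedlings was sequenced, 1 library per genotype, with groups taken from the genotype labels. The authors deposited a table of FPKM values, a column for each library. The submitters' processing notes name build TAIR10 and Cufflinks 2.0.1, Cuffdiff, TopHat2 2.0.12 and Bowtie. Roles, settings and strandedness being not given in the sources used here, reads of overlapping antisense genes are not told apart. Names, positions and promoters came from RefSeq on TAIR10.1 (31416 of 34133 loci matched by locus tag, all members among them); the table holds no positions.

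Values were compared as log2(FPKM + 1) over loci that averaged 1 FPKM or more, with a threshold of 1.3-fold. Where the FPKM of a locus fitted whole multiples of what 1 read is worth, the smallest whole numbers in their ratios were taken as its reads. These are lower bounds if all share a divisor, as is likely for CYCB2;1 and CDKB2;2, and the intervals are then too wide. Other loci got no reads, so the loci with recovered reads are a selected part of all loci. Reads were found for 16503 (67.1%) of the 24606 loci detected in more than 1 library, by a step tested on simulated data; reads served only for 95% intervals (exact binomial, scipy 1.17.1). The 36 members, their phases and 10 further lists (135 genes) were chosen with earlier results of these data known. All members are named, and of each further list the genes past 1.5-fold in any mutant, or else the one that changed most; other genes named are examples. Alternatives were pseudocounts of 0.1 and 0.01, other filters, thresholds and scalings.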

Additional observations from a re-analysis of the deposited data

How the results depend on the processing

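With a mean of at least 5 FPKM only 22 members remained, which lowers the counts by construction: 14 were below the wild type in prp31, 19 above and 3 below in zop1, and 11 above and 11 below in sta1, and prp31 against sta1 had 0 members past 1.3-fold and lower. Pseudocounts of 0.1 and 0.01 gave 2 and 2 members lower in prp31 than in the wild type (5.48% and 5.74% of all loci), 7 and 8 higher in zop1 (10.7% and 10.99%), and 1 and 1 higher in sta1 (6.87% and 7.07%), and 0.01 also gave 1 lower in sta1 (13.3%). A smaller pseudocount widens the differences of low genes. At 1.5-fold and at 2-fold, 0 and 0 members were higher in zop1 than in the wild type, 1 and 0 higher in zop1 than in sta1, 0 and 0 lower in prp31 than in zop1, and 0 and 0 lower in prp31 than in sta1.

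The tested genes of G2 and M all stayed below the wild type in prp31, and MCM2, MCM5, MCM7 and PCNA1 above it in each mutant, under both pseudocounts, all filters and both scalings. The median of all members in sta1 was -0.01 as deposited but 0.04 under median-of-ratios scaling and 0.02 under upper-quartile scaling, so its sign is not settled. Median-of-ratios scaling also turned the prp31 median of S-phase entry to 0.01, against -0.01 as deposited, and the filter at 5 FPKM turned the sta1 median of the inhibitors to -0.06, over 2 genes. That filter raised the zop1 median of G2 and M to 0.34, against 0.20 as reported. Differences this small lie near counting error, with a typical half-width of 0.21 on the log2 scale for 1 member, and 9 members have no recovered reads and no interval. No paired analysis was possible because each group has 1 library.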
